A study of Mus musculus with 39 samples.

Results

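The miR-106b-25 and miR-106a-363 clusters are paralogs of the miR-17-92 cluster, and their members were followed here through 5 days of differentiation of mouse embryonic stem cells (ESCs). Members were chosen by name. Of 7 listed miRNAs, 6 of the 650 on the array had a row: mmu-miR-106b, mmu-miR-93 and mmu-miR-25 of the miR-106b-25 cluster, and mmu-miR-18b, mmu-miR-20b and mmu-miR-363 of the miR-106a-363 cluster. The seventh, mmu-miR-106a, is not analysed here. The species prefix is left out from here on. All 6 were detected on all 39 arrays, so none was lost to the filter on low signals.

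The arrays came from 13 groups of 3. Undifferentiated ESCs, labelled ES, were kept with serum and LIF on mitomycin C-treated fibroblast feeders. The other cells were plated off feeders on collagen in RPMI 1640 with B27 and sodium butyrate, which every differentiated group, controls included, received. They were then left without growth factor (control), or given Wnt3a (50 ng/ml), Activin A (100 ng/ml) or both at these doses, and collected after 1, 3 or 5 days. Activin A drives ESCs toward definitive endoderm (DE), and the study asked what Wnt3a adds to it. According to the methods all cells were of 1 mouse ESC line, TCL-1. The labels do not say whether the 3 samples of a group were separate cultures, so p-values measure the spread between these samples, which may be technical.

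A miRNA is cut from a hairpin in a longer transcript and pairs with mRNAs mainly through its seed, bases 2 to 8, which lowers their stability and translation. The miR-17 family is known for promoting the G1 to S transition, is abundant in ESCs, and targets inhibitors of the cell cycle and of apoptosis such as Cdkn1a and Bcl2l11. Members of 1 cluster start from 1 shared transcript, but each mature miRNA is then cut, loaded and degraded on its own. The miR-106b-25 cluster is carried in an intron of Mcm7, a subunit of the helicase that starts DNA replication. In RefSeq (GRCm38.p6) its 3 mature main strands span chr5:138165332-138165807, inside the extent of Mcm7 (chr5:138164583-138172111). The 4 listed main strands of miR-106a-363 span chrX:52741697-52742563, where the table holds no protein-coding gene. That hairpin cluster also carries second copies of miR-19b and miR-92a, whose mature forms cannot be told from those of miR-17-92, and these were therefore not counted as members.

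The mature sequences are shown because they tie the 2 clusters together and because close relatives could share signal on a probe. Array names were matched to the main strand in RefSeq (7 of 7 found). Sequences run 5′ to 3′, and capitals mark the seed. Those with the miR-17 seed were:
miR-106b-5p: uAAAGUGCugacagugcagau
miR-93-5p: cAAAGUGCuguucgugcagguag
miR-106a-5p: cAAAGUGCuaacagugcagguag
miR-20b-5p: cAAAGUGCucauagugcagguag
The miR-18 seed was carried by:
miR-18b-5p: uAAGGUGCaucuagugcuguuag
The miR-25 seed, shared with miR-92a, was carried by:
miR-25-3p: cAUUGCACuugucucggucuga
miR-363-3p: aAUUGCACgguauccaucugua
Each seed of miR-106b-25 thus has a counterpart in miR-106a-363. Counting positions from 1 at the 5′ end, miR-93-5p and miR-20b-5p differed at 3 of 23 positions (G10C, U11A and C13A). miR-25-3p and miR-363-3p, which share a seed, differed at 13 of 22. Relatives outside the 2 clusters were closer still: miR-20b-5p differed from miR-20a-5p of miR-17-92 at 2 positions (C1U and C10U), miR-18b-5p from miR-18a-5p at 2 (U18A and U20A), and miR-106a-5p from miR-17-5p at 1 (A10U). How far the array's probes separate such sequences was not tested.

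Levels are log2 total signals after quantile normalization, which gives every array the same set of values in its own rank order. The 6 members ranked between 3 and 144 from the top, where neighbouring ranks lie up to 0.43 log2 apart. A level can therefore repeat exactly on several arrays, with an SD of 0, and can jump when a neighbour overtakes it. For this reason differences of the members were also computed with each array set to the 75th percentile of its 143 miRNAs that every array detected, which keeps the measured spacing. This second scale moved the median of all miRNAs tested by more than 0.1 in 11 of 17 comparisons, by −0.20 to 0.53, so that median is given beside the members' values on that scale. Shares of all miRNAs called were computed only for the main quantile normalized fits. Counts of members on the second scale therefore stand without a share. Levels of different miRNAs come from different probes, and only their changes are compared. Groups of 3 arrays often did not overlap. This held for 63.3% of all miRNAs from control day 3 to day 5, and for 73.4% with Activin A against control at day 5. No such share is given for other comparisons, where separate arrays only describe the values. An array detected 183 to 375 miRNAs. The arrays lay on 5 slides read in 2 scan sessions. At days 1 and 5 the control arrays shared no slide with arrays given Wnt3a or both factors, and at day 3 Activin A plus Wnt3a shared its slide with no other group of that day. Replicate 1 of Wnt3a at day 5 stood apart from its group. Pairs of arrays in that group differed by 0.54 to 1.23 (root mean square, log2), against at most 0.36 in every other group. Even its closest pair was thus wider apart than any pair elsewhere.

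The assignment of arrays to Activin A or to Activin A plus Wnt3a is not settled by the deposited data. Groups here follow each scanner file's own sample. In the submitters' table of processed values, 18 of 39 columns matched the scanner file of another array, always among the groups given Activin A and always across groups. Differences from control are therefore given for both groups. Where the table's columns as named end a member's call, or turn an order of the 2 groups that is stated here, those values stand beside it.

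Lists of marker miRNAs were summed as a check of the labels. The 8 miR-290 to 295 markers of undifferentiated ESCs were detected on all 3 arrays of every group. Their summed log2 level was 15.1 in ESCs and 12.9 to 13.1 in controls at day 5. With Activin A it was still 14.69 to 14.84 at day 5, and with both factors 14.96 to 15.05. All marker sums are quantile normalized, where the values of the top ranks are fixed, and were not computed on the second scale. How far these markers fell is therefore uncertain. The 5 markers of primed cells, miR-367 and the miR-302 miRNAs, summed to 12.98 to 13.06 with Activin A and 12.84 to 12.92 with both factors at day 5, against 10.96 to 11.01 in controls. The 6 fibroblast markers summed to 8.81 to 9.03 in ESCs, 9.88 to 10.03 at day 1 and 3.58 to 6.31 later, with 4 of 6 detected on all ESC arrays. The 4 neural markers summed to 9.55 to 9.94 in control cells at day 5 and up to 10.8 with Wnt3a, against 5.23 to 6.45 with Activin A or both factors. The endoderm or epithelium markers (miR-375, miR-200 family) ran the other way, at 10.3 to 10.4 with Activin A or both factors at day 5 against 6.92 to 6.93 in controls. In ESCs they summed to 8.24 to 8.43. These are bulk samples, so fewer cells of a type and less RNA per cell cannot be told apart. The part of these shifts in the results below was not tested.

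All 6 members differed among the 13 groups (limma F-test, adjusted p from 1.18e-13 for miR-106b to 3.44e-05 for miR-25). That is little distinction, since 88.5% of the 373 miRNAs tested did so. Their group means covered 1.09 (miR-25) to 1.67 (miR-20b) on the log2 scale. The clusters peaked at different times. Each member of miR-106b-25 had its highest group mean at day 5, miR-93 and miR-25 in control cells (10.20 ± 0.07 and 10.34 ± 0.06, SD, n = 3) and miR-106b in Wnt3a cells (9.81 ± 0.21). Each measured member of miR-106a-363 had its highest mean at day 3, miR-20b in control cells (12.54 ± 0.09), and miR-18b and miR-363 in Wnt3a cells (7.30 ± 0.01 and 10.16 on all 3 arrays). In these orders the top group overlapped the next for miR-93, miR-18b, miR-20b and miR-363, and stood clear of it for miR-106b and miR-25.

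**Figure D1:**
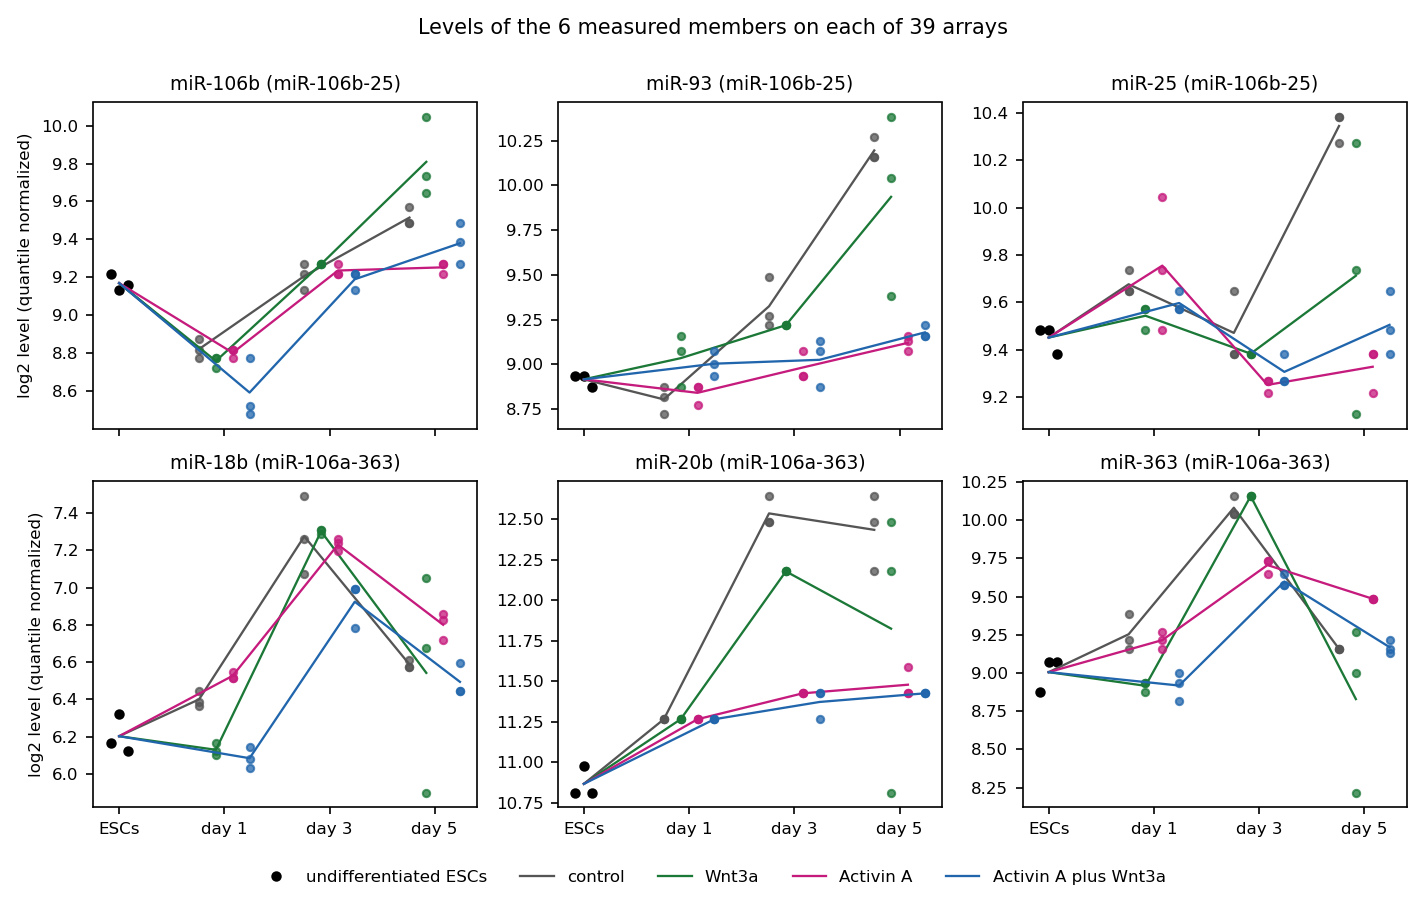
Quantile normalized log2 level (vertical axis, own range per panel) of each measured member in undifferentiated ESCs and at days 1, 3 and 5; every point is 1 array and lines join group means from the ESC mean. The upper row (miR-106b-25) is highest at day 5 in control or Wnt3a cells, and the lower row (miR-106a-363) is highest at day 3.

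On leaving the undifferentiated state, miR-106b was the only member called when quantile normalized, and it fell. The signal of miR-106b gave log2 levels of 9.22, 9.13 and 9.16 on the ESC arrays and 8.87, 8.78 and 8.82 in controls at day 1, which do not overlap. Arrays were apart for 5 of 6 members, upward for miR-25, miR-18b, miR-20b and miR-363, none of which was called. The fall was 0.35 (SE 0.07, adjusted p = 0.000405), and 30.3% of the miRNAs tested were called in this comparison. On the 75th percentile scale the picture differed: miR-106b changed by −0.01 (adjusted p = 1), and the other 5 were higher, by 0.22 (miR-93, adjusted p = 0.0269) to 0.77 (miR-20b, adjusted p = 0.000273), beside a median of 0 over all miRNAs. The sign for miR-93 thus depends on the scale, at −0.11 (adjusted p = 0.735) when quantile normalized. Both groups lay on 1 slide.

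From day 1 to day 3, members of both clusters rose in control cells, most of all those of miR-106a-363 when quantile normalized. miR-18b, which shares the seed of miR-18a, rose from 6.44, 6.37 and 6.39 to 7.26, 7.49 and 7.08, a difference of 0.88 (SE 0.15, 1.83-fold, adjusted p = 7.86e-06). miR-363 rose from 9.38, 9.22 and 9.16 to 10.04, 10.04 and 10.16, by 0.83 (SE 0.13, adjusted p = 3.66e-06). Every array of day 3 was above every array of day 1 for both, a separation for which no share of all miRNAs is given. miR-20b rose by 1.27 (2.41-fold, adjusted p = 5.25e-06), but by 0.31 on the 75th percentile scale (adjusted p = 0.0895), against 0.86 for miR-18b and 0.51 for miR-363 there. Of miR-106b-25, miR-106b rose by 0.39 (adjusted p = 4.2e-05) and miR-93 by 0.52 (adjusted p = 0.00114), and the difference for miR-25 was −0.20 (adjusted p = 0.266). With arrays scaled to the 75th percentile, miR-106b (0.22, adjusted p = 0.0174) and miR-93 (0.31, adjusted p = 0.00106) passed as well, so that 2 of 3 measured members of each cluster did there. Quantile normalized, 5 of 6 members were called higher, where 41.8% of all miRNAs were and the median of all was 0.50 (0.51 on the other scale). A single control array of day 3 lay on a slide with arrays of day 1. In a fit with slide as a term, miR-18b, miR-20b and miR-363 kept an adjusted p between 0.0281 and 0.0306, while miR-106b (0.38, adjusted p = 0.0551) and miR-93 (0.42, adjusted p = 0.261) did not pass.

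From day 3 to day 5 the 2 clusters moved in opposite directions in control cells. miR-93 rose from 9.27, 9.22 and 9.49 to 10.16, 10.16 and 10.27, and miR-25 from 9.38, 9.38 and 9.65 to 10.38, 10.27 and 10.38. These are increases of 0.87 for each (1.83-fold, SE 0.13 and 0.15, adjusted p = 3.4e-06 and 3.04e-05). miR-106b rose less, from 9.22, 9.27 and 9.13 to 9.57, 9.49 and 9.49 (by 0.31, adjusted p = 0.000958). Over the same interval miR-18b fell from 7.26, 7.49 and 7.08 to 6.58, 6.58 and 6.61, by 0.69 (SE 0.15, adjusted p = 0.000348). miR-363 fell from 10.04, 10.04 and 10.16 to 9.16 on all 3 arrays, by 0.92 (SE 0.13, 1.90-fold, adjusted p = 1.74e-06). For these 5 members no array of day 5 overlapped those of day 3, as for 63.3% of all miRNAs. miR-20b was the exception in its cluster, at 12.48, 12.48 and 12.64 and then 12.18, 12.64 and 12.48 (difference −0.10, adjusted p = 0.822).

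All 3 members of miR-106b-25 were called higher, where 20.6% of all miRNAs were, and 2 of 3 measured members of miR-106a-363 lower, where 20.9% were. The median of all 373 miRNAs was 0. On the 75th percentile scale the same 5 members passed with the same signs: miR-106b 0.54, miR-93 0.59, miR-25 0.30, miR-18b −0.68 and miR-363 −0.61 (adjusted p from 3.51e-07 to 0.014), with a median of 0.27 over all miRNAs. The value of miR-25 lay near that median. The opposite changes also separated miR-25 from miR-363, which carry the same seed. The arrays of the 2 days lay on different slides and in different scan sessions, so the day and the slide cannot be told apart. The neural markers rose over the same interval, with 4 of 4 called higher.

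The mean change of each cluster from the ESC mean puts these courses side by side. No p is given for such a score, because the members were chosen with results of these data known, and whether the clusters differ was not tested. In controls at day 3 the 3 members of miR-106b-25 stood 0.11, 0.11 and 0.24 above ESCs on the 3 arrays, while miR-106a-363 stood 1.24, 1.31 and 1.27 above. The same order held on all 12 arrays of day 3: miR-106b-25 minus miR-106a-363 was −1.12 ± 0.09 in controls, −1.08 ± 0.004 in Wnt3a cells, −0.78 ± 0.05 in Activin A cells and −0.61 ± 0.04 in cells given both (SD, n = 3). Scaled to the 75th percentile these gaps were −0.81, −0.79, −0.85 and −0.72.

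By day 5 the gap had closed in controls, where the 2 clusters stood 0.84 and 0.70 above ESCs and the gap was 0.25, 0.03 and 0.14 on the 3 arrays. With Activin A it was smaller than at day 3 but still below 0, at −0.50, −0.57 and −0.45, and with both factors it had narrowed to −0.14, −0.17 and −0.17. Scaled to the 75th percentile, these day 5 gaps were 0.16 ± 0.02 in controls, −0.37 ± 0.004 with Activin A and −0.07 ± 0.03 with both. Arrays of the 3 groups did not overlap on either scale, but the order of the last 2 rests on the assignment of their arrays. Set against the gap in controls, it was −0.65 with Activin A and −0.30 with both factors, and −0.25 and −0.58 with the processed table's columns as named. Wnt3a alone at day 5 spanned −0.48 to 1.43, with the highest value on the replicate that stood apart; its other 2 arrays gave −0.48 and −0.15. By seed, the change of miR-25 minus that of miR-363 from ESCs went from −1.06 ± 0.09 at day 3 to 0.74 ± 0.06 at day 5 in controls, from −0.90 ± 0.07 to −0.60 ± 0.10 with Activin A, and from −0.74 ± 0.10 to −0.11 ± 0.13 with both factors. For miR-93 minus miR-20b it went from −1.26 ± 0.05 to −0.29 ± 0.23 in controls. At the 75th percentile the steps in controls were smaller for the first pair, −0.66 to 0.26, and ended above 0 for the second, −0.55 to 0.23, and the first pair went from −0.92 to −0.42 with Activin A and from −0.83 to −0.06 with both factors. miR-106b had no measured counterpart, since miR-106a is not analysed here.

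**Figure D2:**
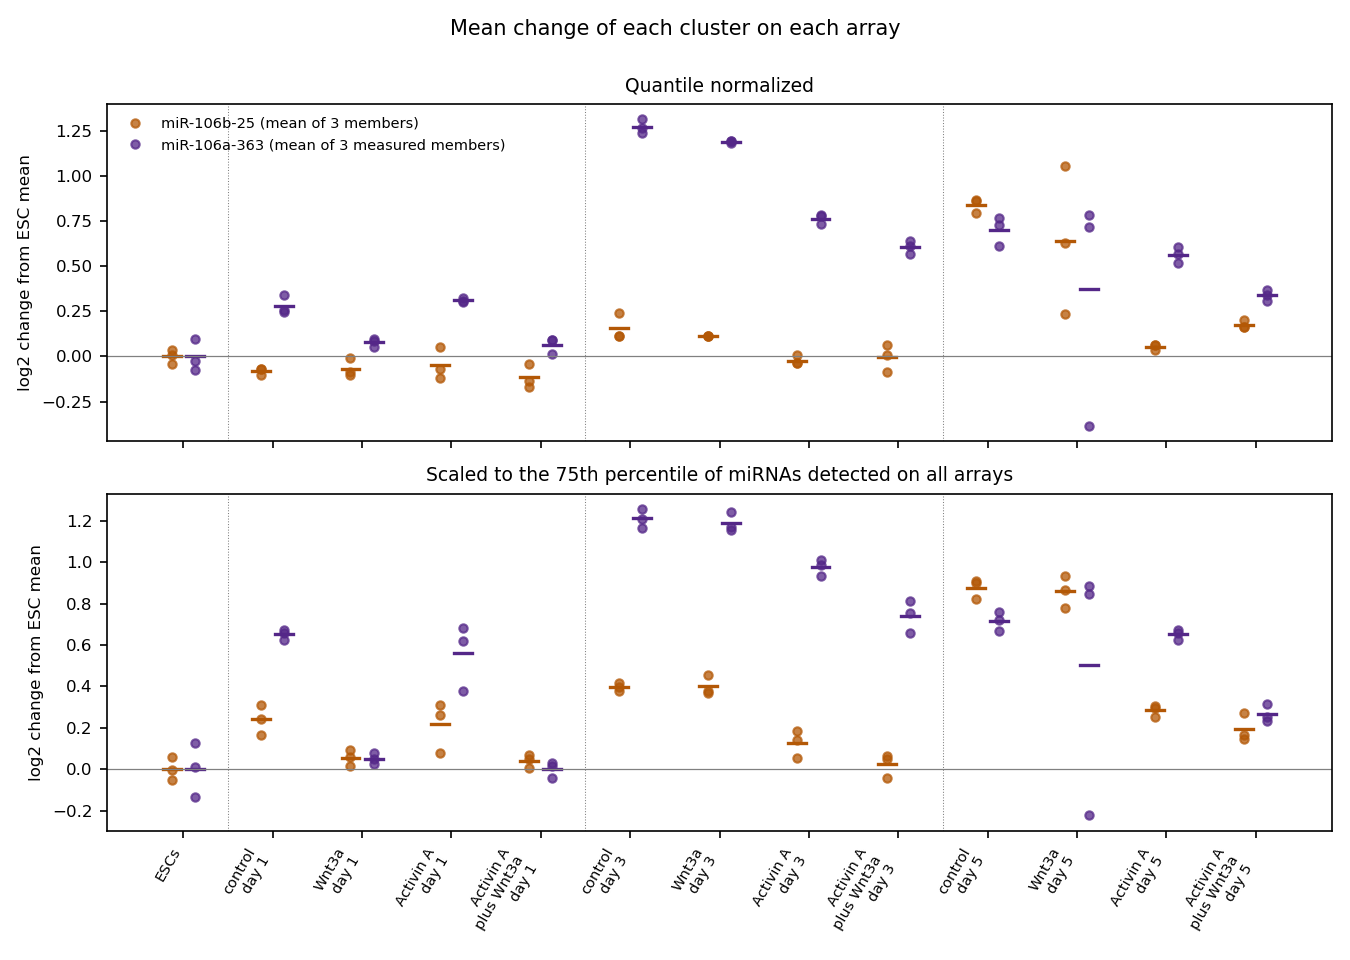
Mean log2 change from the ESC mean of the 3 members of miR-106b-25 and the 3 measured members of miR-106a-363 on each of 39 arrays (points; short bars are group means), quantile normalized above and scaled to the 75th percentile below. At day 3 miR-106a-363 stands above miR-106b-25 in all 4 groups, and at day 5 the order is turned in controls and kept with Activin A.

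At day 5, miR-93 and miR-25 were lower in cells given Activin A, alone or with Wnt3a. miR-93 read 9.13, 9.16 and 9.07 with Activin A and 9.16, 9.16 and 9.22 with both factors, all below the control values of 10.16 to 10.27. The difference was −1.07 for Activin A (SE 0.20, 2.11-fold, adjusted p = 0.00236) and −1.02 for both factors (SE 0.20, 2.02-fold, adjusted p = 0.00273). miR-25 read 9.38, 9.22 and 9.38 with Activin A and 9.38, 9.49 and 9.65 with both. Its differences from control were −1.01 (SE 0.23, adjusted p = 0.00759) and −0.84 (SE 0.23, adjusted p = 0.0162). With the processed table's columns as named, miR-93 gave −0.87 with Activin A and −0.92 with both factors, and miR-25 −0.70 and −0.86. Each still passed (adjusted p from 0.00284 to 0.0223), but the order of the 2 groups turned. ESC arrays read 9.49, 9.49 and 9.38 for miR-25. The third member of the cluster, miR-106b, gave −0.26 (adjusted p = 0.0689) and −0.14 (adjusted p = 0.311). With the columns as named it gave −0.12 (adjusted p = 0.48) and −0.24 (adjusted p = 0.154). The comparisons share their 3 control arrays.

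Over the 3 treatments of day 5 the F-test called 3 of 6 members, those of miR-106b-25, against 46.5% of all miRNAs. Without replicate 1 of Wnt3a it called all 6, so this split by cluster rests on that array. With Activin A, 2 of 6 members were called lower, against 19.3% of all miRNAs. With both factors 3 were, against 24.7%. The third was miR-20b, at −1.01 (SE 0.36, adjusted p = 0.0458), a call lost on leaving out any of 9 of the 12 arrays (adjusted p up to 0.133) and with the processed table's columns as named (−0.81, adjusted p = 0.0843). With Activin A alone miR-20b gave −0.95 (adjusted p = 0.0661). All 6 members were apart from control on every array with Activin A, as were 73.4% of all miRNAs. None was called higher, and the miR-363 difference was 0.33 for Activin A (adjusted p = 0.283) and 0.01 for both factors. With the processed table's columns as named, miR-363 gave 0.02 (adjusted p = 0.948) and 0.32 (adjusted p = 0.313). At the 75th percentile miR-93 gave −0.73 and −0.83 and miR-25 −0.62 and −0.65 (adjusted p from 0.000106 to 0.0044), with medians of −0.19 and −0.20 over all miRNAs, and miR-106b passed as well, at −0.44 (adjusted p = 0.0106) and −0.56 (adjusted p = 0.00188). miR-20b gave −0.47 (adjusted p = 0.16) and −0.83 (adjusted p = 0.0171) there, so that 3 and 4 members were called. Within the 1 slide that held 2 Activin A and 3 control arrays, miR-93 differed by −1.05 and miR-25 by −1.04. Leaving out replicate 1 of Wnt3a, which shares the error estimate of this day, brought further members with Activin A under the threshold. They were miR-106b −0.26 (adjusted p = 0.00404), miR-20b −0.95 (adjusted p = 0.000229) and miR-363 0.33 (adjusted p = 0.00177), beside miR-93 (adjusted p = 0.000261) and miR-25 (adjusted p = 0.000425). The share of all miRNAs called in that fit was not computed, so these 5 of 6 members cannot be set against it. Without Activin A plus Wnt3a replicate 1, miR-25 with both factors gave −0.78 (adjusted p = 0.0536). The change of the Activin A effect from day 3 to day 5 passed for 4 of 6 members (20.9% of all miRNAs) and that of both factors for 2 (28.4%), while the interaction of the factors at day 3 passed for 1 (22.7%). Neural markers were lower and endoderm or epithelium markers higher in the same comparisons (4 of 4 and 6 of 6 called).

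Wnt3a alone at day 5 called 0 of 6 members in limma (2 at an unadjusted p under 0.05, and 0 by the methods' plain test), where 8.15% of all miRNAs were called. Its 3 arrays were wide apart. miR-25 read 10.27, 9.13 and 9.74 and miR-20b 10.81, 12.18 and 12.48. Without replicate 1, miR-25 gave −0.91 (adjusted p = 0.00442) and miR-93 −0.48 (adjusted p = 0.0487).

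At day 3 Activin A also went with lower levels, of members of both clusters. miR-20b read 11.43 on all 3 arrays with Activin A and 11.43, 11.43 and 11.27 with both factors, below all control arrays (12.48, 12.48 and 12.64). The differences were −1.11 (SE 0.06, 2.16-fold, adjusted p = 1.95e-07) and −1.16 (SE 0.06, adjusted p = 1.1e-07). The size rests on the scale: at the 75th percentile the differences were −0.37 (adjusted p = 0.000303) and −0.60 (adjusted p = 9.94e-06). The differences for miR-363 were −0.38 (adjusted p = 0.000109) and −0.48 (adjusted p = 1.5e-05), and for miR-93 −0.34 (adjusted p = 0.00725) and −0.30 (adjusted p = 0.013). At the 75th percentile miR-363 gave −0.14 (adjusted p = 0.0303) and −0.31 (adjusted p = 0.000354), and miR-93 −0.37 (adjusted p = 0.000537) and −0.44 (adjusted p = 0.00018). With Activin A the median of all miRNAs there was −0.21, a larger fall than that of miR-363. miR-25 passed with Activin A (−0.22, adjusted p = 0.0262) but not on leaving out any 1 of the 3 Activin A arrays (adjusted p = 0.0515 to 0.0782), and miR-18b passed with both factors (−0.35, adjusted p = 0.0112), though not with the processed table's columns as named (−0.04, adjusted p = 0.805).

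Over the 3 treatments of day 3 the F-test called miR-93, miR-18b, miR-20b and miR-363, where it called 70.2% of all miRNAs. Activin A and both factors each called 4 of 6 members lower and 0 higher at day 3, against 31% of all miRNAs lower with Activin A and 32.5% with both. On the second scale the 4 members of each treatment passed again with the same sign, and with both factors all 6 did, miR-106b at −0.21 (adjusted p = 0.0278) and miR-25 at −0.48 (adjusted p = 0.000231). Medians over all miRNAs there were −0.21 with Activin A and −0.01 with both. Within the slide that held 3 Activin A and 2 control arrays, miR-20b differed by −1.14, miR-363 by −0.39 and miR-93 by −0.37. For Activin A plus Wnt3a the treatment and the slide cannot be told apart. Wnt3a alone called 1 member, miR-20b at −0.36 (adjusted p = 0.00144, against 35% of all miRNAs called), whose sign turned on the 75th percentile scale (0.07, adjusted p = 0.423).

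At day 1, miR-18b and miR-363 were lower in cells given Wnt3a alone, and also in the arrays assigned to both factors. miR-18b read 6.17, 6.10 and 6.12 with Wnt3a and 6.08, 6.03 and 6.14 with both factors, below the control arrays (6.44, 6.37 and 6.39), and 6.55, 6.52 and 6.52 with Activin A. Its difference from control was −0.27 for Wnt3a (SE 0.04, adjusted p = 0.00453) and −0.32 for both factors (SE 0.04, adjusted p = 0.00087). miR-363 differed by −0.34 in each (adjusted p = 0.0103 and 0.00973). With the processed table's columns as named, neither was called with both factors, at 0.13 for miR-18b (adjusted p = 0.157) and 0.0049 for miR-363 (adjusted p = 1), while the calls with Wnt3a alone stood. With both factors miR-106b was also called, at −0.23 (adjusted p = 0.0443), a call lost on leaving out any of 10 of the 12 arrays (adjusted p up to 0.134) and with the columns as named (0, adjusted p = 1).

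The F-test over the 3 treatments of day 1 called 2 of 6 members, miR-18b and miR-363, against 24.2% of all miRNAs. By treatment, 2 were called with Wnt3a, 0 of 6 with Activin A and 3 of 6 with both, against 20%, 3.33% and 25% of the 240 miRNAs tested. For Activin A, 1 member had an unadjusted p under 0.05 and 0 passed the methods' plain test. miR-20b ranked 9 from the top on all 12 arrays of the day and therefore had 1 quantile normalized level, 11.27, although its signals ran from 1230 to 1850. On the 75th percentile scale it was lower for Wnt3a cells (−0.64, adjusted p = 0.00484) and for cells given both (−0.72, adjusted p = 0.00145), as were miR-18b (−0.53 and −0.68) and miR-363 (−0.63 and −0.55), with medians of −0.12 and −0.18 over all miRNAs. The slide of the controls held no array with Wnt3a. With slide as a term, no member passed in either comparison with control (miR-18b −0.25, adjusted p = 0.158, and −0.30, adjusted p = 0.0625).

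**Figure D3:**
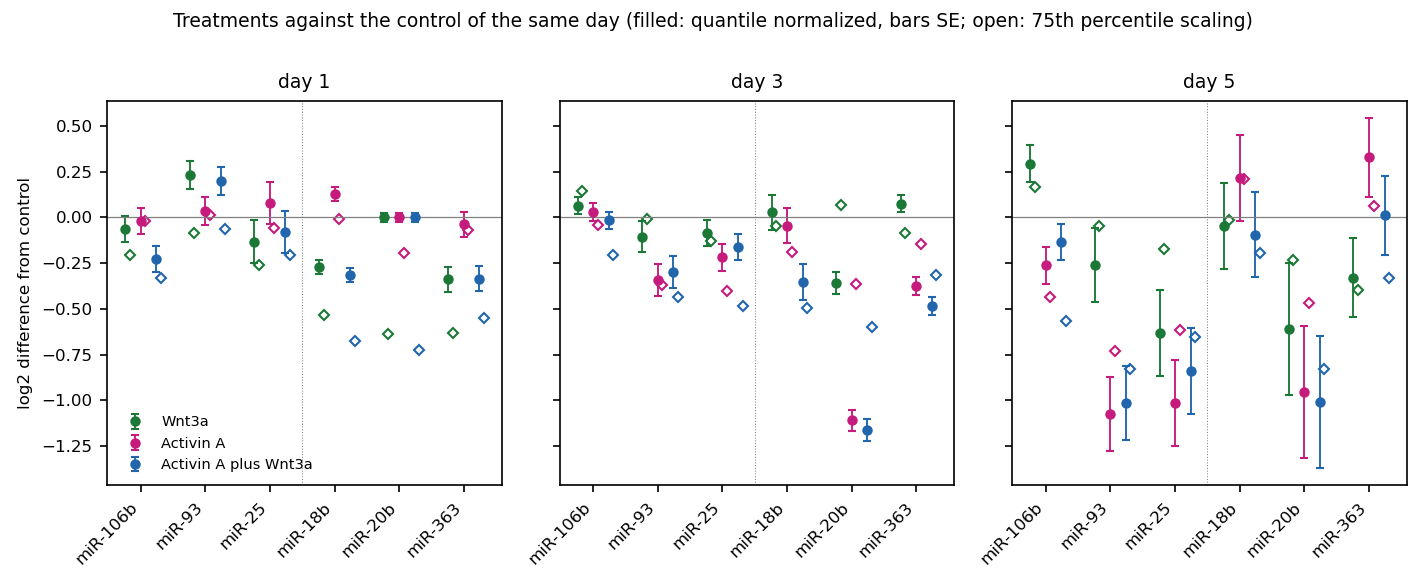
Log2 difference of each treatment from the control of the same day for the 6 measured members (miR-106b-25 left of the dotted line). Filled circles with SE bars are quantile normalized and open diamonds are scaled to the 75th percentile; 3 arrays per group. At day 5 miR-93 lies at −1.07 and −1.02 with Activin A and both factors, and at day 1 miR-20b lies at 0 when quantile normalized but at −0.64 and −0.72 on the other scale with Wnt3a and both factors.

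For Wnt3a added to Activin A, the question of the study, the quantile normalized calls were of members of miR-106a-363, and the direction depended on which deposited values were used. At day 1, miR-18b was lower with both factors than with Activin A (−0.44, SE 0.04, adjusted p = 0.000202) and miR-363 too (−0.30, adjusted p = 0.0304), so 2 of 6 members were called against 10.4% of all miRNAs. Scaled to the 75th percentile 4 were, of both clusters: miR-18b −0.67 (adjusted p = 0.000335), miR-20b −0.53 (adjusted p = 0.0108), miR-363 −0.48 (adjusted p = 0.0108) and miR-106b −0.31 (adjusted p = 0.0187), with a median of −0.14 over all miRNAs. Against the 1 Activin A array on the same slide the differences were −0.43 and −0.30, and with slide as a term miR-18b kept its call (adjusted p = 0.00331) and miR-363 did not (adjusted p = 0.208). The call of miR-363 was also lost on leaving out any of 6 arrays (adjusted p up to 0.11). With the columns of the processed table as named the signs turned, miR-18b to 0.47 (adjusted p = 0.00026) and miR-363 to 0.25 (adjusted p = 0.0293), and miR-18b with Activin A against control to −0.34 (adjusted p = 0.000974).

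At day 3, miR-18b read 6.995, 6.78 and 6.995 with both factors against 7.19, 7.24 and 7.26 with Activin A (−0.31, adjusted p = 0.0431), and 0.32 with the table's columns as named (adjusted p = 0.0474). That was 1 of 6 members, against 29.4% of all miRNAs, and the call was lost on leaving out any of 9 of the 12 arrays (adjusted p up to 0.156). Same-numbered arrays of these 2 groups deviated together, and with the replicate number as a block the call of miR-18b was lost as well (−0.31, adjusted p = 0.0781). On the 75th percentile scale 3 members passed, all of miR-106a-363: miR-18b −0.30, miR-20b −0.23 and miR-363 −0.17, with a median of 0.11 over all miRNAs. With the 75th percentile taken over all miRNAs instead, all 6 passed, miR-93 (−0.27) and miR-25 (−0.28) among them. Neither the share called nor the median of all miRNAs was computed on that scale, so this count cannot be told from a shift of all miRNAs. At day 5 limma called 0 of 6 members, 0 had an unadjusted p under 0.05 and the methods' plain test called 2, against 4.89% of all miRNAs in limma. miR-363 read 9.13, 9.22 and 9.16 with both factors against 9.49 on all 3 Activin A arrays (−0.32, adjusted p = 0.754), and passed without replicate 1 of Wnt3a (adjusted p = 0.00852). miR-18b gave −0.31 on that day (adjusted p = 0.816). With the processed table's columns as named both signs turned, to 0.30 for miR-363 (adjusted p = 0.751) and 0.31 for miR-18b (adjusted p = 0.763).

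At day 5 with both factors, the DE condition, the members stood within 0.56 of their mean level in undifferentiated ESCs. Called higher were miR-106b by 0.21 (SE 0.07, adjusted p = 0.0152) and miR-20b by 0.56 (SE 0.21, adjusted p = 0.0226), 2 of 6 against 43.7% of all miRNAs, and 0 were lower. With the processed table's columns as named miR-106b gave 0.13 (adjusted p = 0.15). Each call is lost on leaving out 1 of 2 arrays (miR-106b without Activin A plus Wnt3a replicate 1 or ES replicate 2, adjusted p = 0.0974 and 0.0536; miR-20b without ES replicate 1 or 3, adjusted p = 0.0593 and 0.0555), and on the 75th percentile scale miR-20b gave 0.07 (adjusted p = 0.792). On that scale 3 members were called higher: miR-106b by 0.19, miR-93 by 0.29 and miR-18b by 0.56. The median of all miRNAs was 0.42 (0.55 at the 75th percentile), against 0.21 for miR-106b-25 and 0.29 for the measured miR-106a-363. Control cells at day 5 stood further from ESCs, with 5 of 6 members called higher against 47.5% of all miRNAs: miR-20b by 1.57 (2.96-fold, adjusted p = 1.63e-07), miR-93 by 1.28 (2.43-fold, adjusted p = 1.37e-09), miR-25 by 0.89, miR-18b by 0.39 and miR-106b by 0.35. miR-363 gave 0.15 (adjusted p = 0.332), and the median of all miRNAs was 0.55. That median was 1.08 at the 75th percentile, where all 6 members were called: miR-93 by 1.12 and the other 5 below that median, miR-20b by 0.89, miR-25 by 0.76, miR-18b by 0.75, miR-106b by 0.75 and miR-363 by 0.50 (adjusted p from 2.12e-13 to 0.00589). The quantile normalized call of miR-18b was lost without control day 5 replicate 3, ES replicate 1 or ES replicate 3 (adjusted p = 0.0523 to 0.0704). These 2 comparisons share the ESC arrays, and slide cannot be separated from either.

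**Figure D4:**
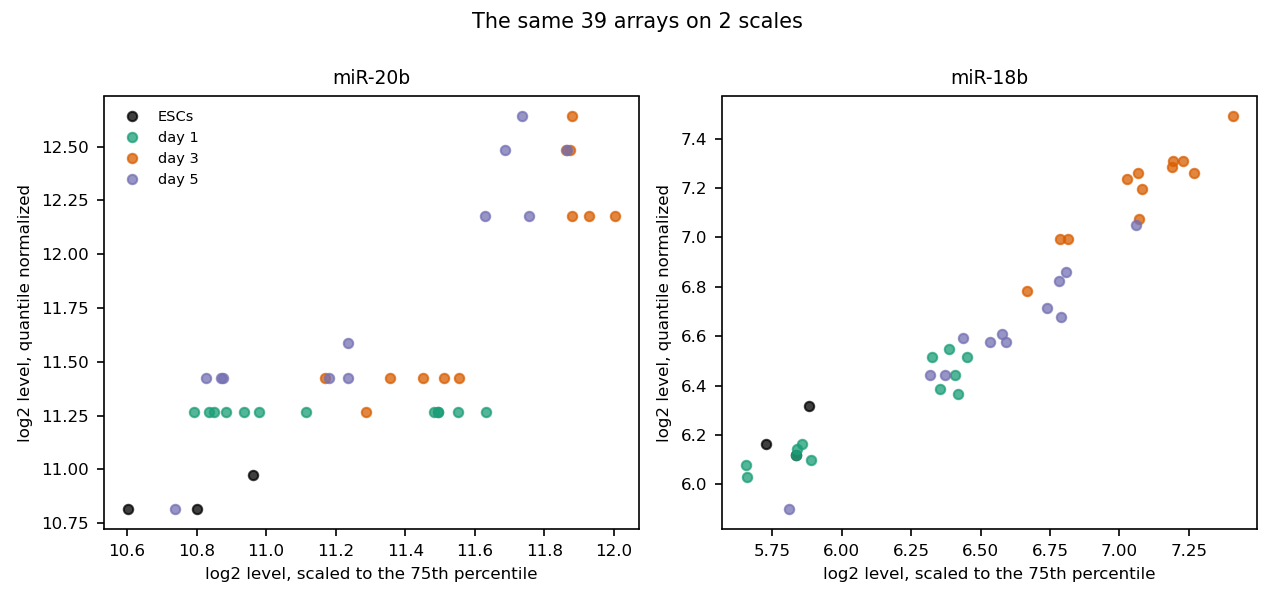
Each of 39 arrays as a point: log2 level scaled to the 75th percentile (horizontal) against the quantile normalized log2 level (vertical) for miR-20b and miR-18b, coloured by day. miR-20b takes 8 quantile normalized levels over all arrays, with 1 level for all 12 arrays of day 1, while miR-18b, further down the ranks, takes 30.

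Across the 13 group means, correlations between members were computed on both scales. On the 75th percentile scale the 3 pairs within miR-106a-363 had r of 0.81 to 0.91, the 3 within miR-106b-25 of 0.50 to 0.90, and the 9 pairs between clusters of 0.03 to 0.54. The ranges overlap, since miR-106b with miR-25 (0.50) lay below miR-20b with each member of miR-106b-25 (0.53 to 0.54). miR-106b was also nearer to miR-18a of miR-17-92 (0.92) than to miR-93 (0.90) or miR-25. Quantile normalized, the ranges were 0.53 to 0.92, 0.15 to 0.74 and −0.44 to 0.71, the highest between clusters being miR-93 with miR-20b. These are descriptions over 13 points that share arrays, slides and a normalization. Among the 142 other miRNAs detected on all arrays, miR-18b and miR-363 were among the 3 nearest to each other (r = 0.92), beside miR-379 (0.93) and miR-300 (0.92) for miR-18b and miR-154 (0.91) and miR-409-3p (0.91) for miR-363. miR-93 was nearest to miR-296-5p (0.96), miR-20a (0.94) and miR-342-3p (0.91), miR-25 to miR-16 (0.91), miR-20a (0.80) and miR-30a (0.76), and miR-106b to miR-690 (0.96), miR-17* (0.94) and miR-494 (0.92). miR-20b was nearest to miR-342-3p (0.85), miR-127 (0.81) and miR-30b (0.80). These nearest miRNAs were ranked on quantile normalized means. On the 75th percentile scale r was 0.50 for miR-20b with miR-30b, 0.70 with miR-342-3p, and 0.67 for miR-25 with miR-20a. The other pairs had 0.78 to 0.96 there.

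The third paralog, miR-17-92, shared the early rise and the low level with Activin A. Its miR-19b and miR-92a cannot be assigned to it alone, since miR-106a-363 carries second copies of both. From day 1 to day 3 in controls 5 of its 6 members were called higher (median 0.87), against 41.8% of all miRNAs, miR-17 by 1.71 and miR-19b by 1.16. At the 75th percentile miR-17 gave 1.68 and miR-19b 0.54, and the sign of miR-92a turned from 0.69 to −0.27 (adjusted p = 0.0548). From day 3 to day 5, 2 were higher, miR-20a by 1.41 (adjusted p = 2.54e-06) and miR-18a by 0.42 (adjusted p = 0.00804), and miR-92a, with the seed of miR-25 and miR-363, was lower (−0.69, adjusted p = 2.15e-05). For the same step the 75th percentile scale gave 0.36 for miR-20a (adjusted p = 0.0664), 0.27 for miR-18a (adjusted p = 0.0735) and −0.30 for miR-92a (adjusted p = 0.0465). With Activin A at day 5, 4 of 6 were called lower (median −0.57), against 19.3% of all miRNAs, among them miR-20a (−2.08) and miR-92a (−1.35), whose differences at the 75th percentile were −0.82 and −0.70. Other miRNAs with the miR-25 seed gave no common course: miR-367, of the miR-302 cluster of primed cells, was higher with Activin A at day 5 by 2.46 (adjusted p = 0.00082), while miR-92b gave −1.64 (adjusted p = 0.176) and miR-32 gave 1.80 (adjusted p = 0.213). Of the opposite strands of the members' hairpins, 3 were on the array. miR-20b* was higher in controls at day 1 than in ESCs by 2.66 (adjusted p = 1.72e-05), where only 1 of 3 ESC arrays detected it and the size rests on the floor, fell by 1.26 from day 3 to day 5 (adjusted p = 0.0182), and was higher with Activin A at day 5 by 0.71 (adjusted p = 0.0115). At the 75th percentile the last 2 calls were lost (−0.53, adjusted p = 0.131, and 0.34, adjusted p = 0.164). miR-106b* and miR-93* passed in none of these 3 comparisons.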

How the data were processed

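Total RNA from 39 samples, 3 in each of 13 groups, was hybridized by the authors to 1-colour Agilent mouse miRNA arrays. The deposited scanner files hold a total gene signal, a linear intensity summed over the probes of each miRNA, with a detection flag; the file headers name Feature Extraction 10.7.3.1 and the labels 9.5.3.1. The submitters' processed table holds deposited log2 values and was used only as an alternative. Members and lists were chosen with earlier results of these data known.

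Signals were quantile normalized over 650 miRNAs, values under 2 were then set to 2, and all were log2 transformed. Tests covered each miRNA detected on 2 of 3 arrays of any group compared. limma 3.58.1 in R 4.3.3 was fitted to the 4 groups of a day for treatments and to all 13 groups for time, with Benjamini-Hochberg adjustment over all miRNAs tested and a threshold of 0.05. Members were named because the list names them, and likeness to other miRNAs by the 3 highest correlations over 13 quantile normalized group means. Scripts were tested on simulated data. The number of arrays limits the precision. Alternatives changed the scaling, background correction, filter, floor, test, blocks and arrays. Same-numbered arrays deviated together in 1 of 17 comparisons, Activin A plus Wnt3a against Activin A at day 3 (r = 0.129, 0.391 and 0.122 for numbers 1, 2 and 3), where the blocked value is given; elsewhere the numbers were not taken as pairs.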

Additional observations from a re-analysis of the deposited data

Results flagged for a closer look

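For 7 results the effect of a treatment differed between days or with the other factor by a test of that difference. The Activin A effect on day 5 minus that on day 3 was −0.29 for miR-106b (adjusted p = 0.0448), −0.73 for miR-93 (adjusted p = 0.00488), −0.80 for miR-25 (adjusted p = 0.009) and 0.70 for miR-363 (adjusted p = 0.00775), in limma, where 20.9% of all miRNAs were called. Scaled to the 75th percentile these were −0.39 (adjusted p = 0.0153), −0.36 (adjusted p = 0.021), −0.22 (adjusted p = 0.367) and 0.20 (adjusted p = 0.707). The call of miR-106b was lost on leaving out any of 11 arrays (adjusted p up to 0.123). With the processed table's columns as named, the values for miR-106b (−0.09, adjusted p = 0.731) and miR-363 (0.40, adjusted p = 0.144) did not pass.

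With Activin A plus Wnt3a the effect on day 5 minus that on day 3 was −0.72 for miR-93 (adjusted p = 0.00414) and −0.67 for miR-25 (adjusted p = 0.0203), where 28.4% of all miRNAs were called. Scaled to the 75th percentile they were −0.39 (adjusted p = 0.00838) and −0.17 (adjusted p = 0.397), and without Activin A plus Wnt3a day 5 replicate 1 the value for miR-25 was −0.61 (adjusted p = 0.0533).

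At day 3 the effect of Wnt3a on miR-20b with Activin A minus that without was 0.30 (adjusted p = 0.028, 22.7% of all miRNAs called). Its sign turned on the 75th percentile scale (−0.30, adjusted p = 0.021), and 7 arrays each removed the call when left out (adjusted p up to 0.0641), as did the replicate number as a block (adjusted p = 0.0623).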

How the results depend on the processing

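Counts of members called and gaps between clusters (miR-106b-25 minus miR-106a-363) are given in turn. Shares of all miRNAs called were not computed for these alternatives. The 75th percentile over all miRNAs as the scale gave 0 members for treatments at day 1, 4 for control day 1 against ESCs, 2 for day 3 against day 1, 3 for day 5 against day 3, 1 for Activin A plus Wnt3a at day 5 against ESCs, and 0 and 6 for both factors against Activin A at days 1 and 3. Over miRNAs detected on all arrays it gave 4 for treatments at day 1, 5 for control day 1 against ESCs, and 4 and 3 for both factors against Activin A. Normexp gave 6, 3 and, for both factors against Activin A at day 1, 6. The methods' plain test gave 3 for control day 1 against ESCs and 1, 0 and 2 for both factors against Activin A at days 1, 3 and 5. Slide as a fixed block gave 1 for treatments at day 1, 3 for day 3 against day 1 and 1 for both factors against Activin A at day 1. As a random block it gave 1, 5 for treatments at day 5, and 1 and 0 for both factors against Activin A. 1 fit of all 39 arrays gave 0, 2 and 5 for treatments at days 1, 3 and 5 and 0 for both factors against Activin A at days 1 and 3. Quantile normalization of log2 signals and no filter each gave 0 at day 3. The replicate block gave 1 and 0 for both factors against Activin A at days 1 and 3, against 2 and 1 without it, and changed no other count by over 1.5 times.

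The gap in controls at day 5 was −0.0042 with log2 signals quantile normalized, 0.26 with normexp and 0.51 by the median. With both factors against ESCs it was −0.071 by either percentile, 0.13 with normexp, −0.48 with the processed table's columns as named and −0.081 by the median. Activin A against control at day 5 gave −0.52 (log2 signals), −0.53 (percentiles), −0.80 (within day), −0.32 (normexp), −0.25 (columns as named) and −1.23 (median), and both factors −0.19, −0.48 within day, −0.12, −0.58 and −0.74.

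Leaving out 1 array gave 6 to 6 members among 13 groups, 2 to 3, 3 to 5 and 2 to 6 for treatments at days 1, 3 and 5, 1 to 1, 5 to 5, 5 to 5 and 1 to 2 for the time comparisons in the order above, and 1 to 3, 0 to 1 and 0 to 1 for both factors against Activin A. The gaps ran from 0.08 to 0.19, −0.21 to −0.11, −0.70 to −0.59 and −0.36 to −0.25.

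Single members turned sign as follows. Over all miRNAs at the 75th percentile, day 3 against day 1 gave −0.15 for miR-106b, −0.062 for miR-93 and −0.060 for miR-20b. Both factors at day 5 against ESCs gave −0.25 for miR-106b and −0.37 for miR-20b, and the day 5 minus day 3 effect 0.13 for miR-25. At day 3, miR-363 with Wnt3a gave −0.23, both factors against Activin A −0.27 for miR-93 and −0.28 for miR-25, and the interaction −0.36 for miR-20b. Over those detected on all arrays, miR-93 gave 0.22 at day 1 against ESCs, and miR-20b 0.065 with Wnt3a at day 3 and −0.30 in the interaction. Normexp gave −0.14 for miR-20b against ESCs, 0.16 and 0.11 for miR-25 at day 1 with both factors against control and Activin A, and 0.11 for miR-93 with Wnt3a at day 3. With columns as named, miR-18b gave −0.34 with Activin A, 0.13 with both, 0.47 between them and 0.75 in the interaction at day 1, and 0.32 between them at day 3, and miR-363 gave 0.0049 and 0.25. Except for that exchange of columns, the cause was not tested. Slide could not be fitted as a term where each group lay on its own slide. A higher floor for undetected members had nothing to act on, since all 6 were detected on all arrays.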
